A study of Mus musculus with 13 samples.

Results

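The genes described here are 10 genes of the circadian clock, the Per1, Per2, Per3, Cry1, Cry2, Nr1d1, Nr1d2, Dbp, Tef and Clock transcripts, measured by RNA-seq in gastrocnemius muscle of obese mice. They were taken by name from the 21868 genes of the deposited table of normalized counts, and all 10 were among the 12303 genes with a mean of at least 10 normalized counts over the mice. The 13 male C57BL/6N mice (C57BL/6 in the labels) arrived at 7 weeks of age, had 1 week of acclimatization, were made obese with a diet of 60 kcal% fat for 15 to 17 weeks, and were then moved to standard chow. In the 3 weeks that followed, 5 vehicle mice (mice 1 to 5) received phosphate-buffered saline with placebo, 5 semaglutide mice (mice 13 to 17) received 30 nM/kg/day of this GLP-1 receptor agonist intraperitoneally with placebo, and 3 semaglutide + ketone ester mice (mice 19, 21 and 22) drank water that held a ketone ester (0.114 g/mL) on top of that dose. No group given the ester without semaglutide was analysed here. All mice carry a single batch label, and the time of day at which muscle was taken is not given in the sources used here.

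The mammalian clock is a transcriptional feedback loop present in nearly every cell. CLOCK and BMAL1 (encoded by Arntl) bind E-box sequences and switch on the Per and Cry genes, whose proteins return to the nucleus and repress CLOCK and BMAL1. The same activators drive the REV-ERB genes Nr1d1 and Nr1d2 and the PAR bZIP genes Dbp and Tef; REV-ERB proteins compete with ROR receptors on the Arntl and Cry1 genes, and DBP and TEF activate genes with a D-box. In skeletal muscle these genes oscillate over the day, shift with feeding and activity, and include regulators of fuel use among their targets.

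The regulatory windows of 6 of the genes are shown because they hold matches to the letters of elements of the loop, or, for Dbp, because this gene had the largest difference in level of the 10. The windows of Tef also hold matches and are not shown. Each run is the RefSeq promoter on GRCm38.p6 from 250 bases before to 50 bases after the annotated start site, 5′ to 3′ on the gene's strand, with matches in capitals. The windows are chr11:69098699-69098998 on the plus strand for Per1, chr4:151044616-151044915 on the minus strand for Per3, chr10:85185005-85185304 on the minus strand for Cry1, chr2:92434020-92434319 on the minus strand for Cry2, chr11:98775328-98775627 on the minus strand for Nr1d1 and chr7:45704997-45705296 on the plus strand for Dbp.
Per1: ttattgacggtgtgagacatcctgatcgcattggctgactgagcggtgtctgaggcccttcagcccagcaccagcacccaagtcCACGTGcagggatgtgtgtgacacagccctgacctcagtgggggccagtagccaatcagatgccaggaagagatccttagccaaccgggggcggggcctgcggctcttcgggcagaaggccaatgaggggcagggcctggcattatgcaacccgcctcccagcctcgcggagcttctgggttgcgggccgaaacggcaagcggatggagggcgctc
Per3: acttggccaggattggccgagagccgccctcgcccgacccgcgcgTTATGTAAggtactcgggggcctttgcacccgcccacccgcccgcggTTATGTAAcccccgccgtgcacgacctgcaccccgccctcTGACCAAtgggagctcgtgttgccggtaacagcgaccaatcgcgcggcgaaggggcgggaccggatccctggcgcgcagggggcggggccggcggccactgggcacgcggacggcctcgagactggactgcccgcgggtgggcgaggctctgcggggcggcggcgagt
Cry1: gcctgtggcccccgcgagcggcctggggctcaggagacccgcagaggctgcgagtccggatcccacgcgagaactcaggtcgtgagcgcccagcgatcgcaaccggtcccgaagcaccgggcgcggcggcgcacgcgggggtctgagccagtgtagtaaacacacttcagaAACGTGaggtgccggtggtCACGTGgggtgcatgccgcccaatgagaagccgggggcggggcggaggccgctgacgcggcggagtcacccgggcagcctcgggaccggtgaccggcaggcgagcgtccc
Cry2: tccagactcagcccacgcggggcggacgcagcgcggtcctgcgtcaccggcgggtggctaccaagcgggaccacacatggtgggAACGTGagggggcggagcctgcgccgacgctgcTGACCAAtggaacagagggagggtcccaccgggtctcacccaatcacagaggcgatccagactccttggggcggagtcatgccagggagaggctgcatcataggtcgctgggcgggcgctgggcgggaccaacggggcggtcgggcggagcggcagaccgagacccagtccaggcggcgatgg
Nr1d1: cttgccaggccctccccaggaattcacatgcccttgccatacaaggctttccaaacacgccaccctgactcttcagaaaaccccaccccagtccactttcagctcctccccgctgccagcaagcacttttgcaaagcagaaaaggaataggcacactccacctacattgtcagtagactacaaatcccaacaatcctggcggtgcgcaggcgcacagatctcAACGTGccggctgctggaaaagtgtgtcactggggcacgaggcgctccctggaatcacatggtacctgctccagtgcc
Dbp: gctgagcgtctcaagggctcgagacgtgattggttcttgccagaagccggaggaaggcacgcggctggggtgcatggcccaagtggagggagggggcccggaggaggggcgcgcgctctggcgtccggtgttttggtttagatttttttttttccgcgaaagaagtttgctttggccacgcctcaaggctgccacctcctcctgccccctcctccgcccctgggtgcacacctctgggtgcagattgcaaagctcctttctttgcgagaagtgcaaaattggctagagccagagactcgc

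The letters searched, on both strands, were the E-box CACGTG, the E'-box CACGTT (read AACGTG on the other strand), the D-box TTANGTAA, a loose ROR-like pattern TNGGTCA (read TGACCNA on the other strand) and the cAMP response element TGACGTCA. N stands for any base, so a match to the ROR-like pattern need not be a ROR element. An entry was found for 9 of the 10 genes, with 13 windows in all, and none of their 12 matches overlapped another. The E-box was in 4 of the 13 windows, those of Cry1, Per1 and both windows of Tef, against 7.15% of all 32851 mouse windows of this length. The E'-box was in 3 of the 13 windows, those of Cry1, Cry2 and Nr1d1, against 4.68%. The D-box was in 1 window, that of Per3, which held it at 2 places, against 2.32% of all windows. The ROR-like pattern was in 3 windows, those of Cry2, Per3 and Tef, against 11.0%, and the cAMP response element was in none, against 1.79%. Each ROR-like match read TGACCAA, which is TTGGTCA on the other strand. No match was found in the windows of Clock, Nr1d2 and Dbp, which says only that these letters are not within 300 bases of sequence around those start sites. The letters mark matches and not bound sites, since no binding was measured.

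Depth was similar in most libraries, with 15319471 to 23498162 reads assigned to genes. Muscle fibre markers (Acta1, Ckm, Myh4, Myh1, Myh2, Myh7 and Mb) summed to 2036700 to 2429500 normalized counts in vehicle mice, 1235500 to 2189700 in semaglutide mice and 2561600 to 3015300 in semaglutide + ketone ester mice, which matches the labelled tissue. Of these 7 genes, 3 fell with semaglutide against vehicle and 3 rose with the ester against semaglutide. Semaglutide mouse 13 stood apart from its group. On the first principal component, which held 38.1% of the variance over the 12303 genes, it scored -9.12, between the vehicle mice (-24.49 to -12.85) and the other semaglutide mice (31.83 to 52.51), so the counts, and the values it changes most, are also given without it. Mouse 13 was picked from these same values for lying toward the vehicle mice. Fits without it therefore favour larger semaglutide differences and smaller adjusted p, and add no independent support. Some markers of other cells differed between groups. The 3 erythroid genes summed to 1001 to 1723 in vehicle mice, 36.9 to 2326 in semaglutide mice and 2077 to 4178 in semaglutide + ketone ester mice, and all 3 rose with the ester against semaglutide. The 3 tendon genes summed to 546 to 4491, 307 to 1668 and 2136 to 2525 in the same order of groups. Fmod held most of these counts (means of 2960, 636 and 2233), and Tnmd went the same way (108, 10.5 and 112). Scx went the other way, with means of 77.8, 103 and 45.5. Both smooth muscle genes and 2 of 3 fibroblast genes fell with semaglutide against vehicle. Of all genes, 25.1% passed an adjusted p of 0.05 in limma there (13.2% lower), and 18.4% for the ester against semaglutide (9.09% higher). Counts over marker lists this short are not read as results about these cells. Semaglutide mouse 16 had the highest sums of the T cell (44.7), adipocyte (8029) and macrophage (885) genes, whose group medians were at most 2.22, 1311 and 400, with no adipocyte or macrophage gene past the threshold. The part of any of these cells in the clock results was not tested. In bulk muscle, fewer cells of a type and less RNA per cell cannot be told apart.

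The 10 protein-coding genes lie on 9 chromosomes (GRCm38, GENCODE), and Per1 and Nr1d1 share chromosome 11. The PERIOD genes are at chr11:69095217-69109960 (Per1), chr1:91415982-91459324 (Per2) and chr4:151003652-151044665 (Per3), and the cryptochrome genes at chr10:85131700-85185064 (Cry1) and chr2:92403646-92434043 (Cry2). Nr1d1 is at chr11:98767932-98775333, Nr1d2 at chr14:18204054-18239127, Dbp at chr7:45705088-45710203, Tef at chr15:81802421-81826863 and Clock at chr5:76209868-76304792.

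Levels of the 10 genes were compared with each other as RPKM-like values, recovered reads scaled to exon length and to library total. In vehicle mice Nr1d1 was highest (54.9 ± 12.5, SD, n = 5), followed by Tef (35.7 ± 1.76), Dbp (21.9 ± 2.43), Nr1d2 (21.5 ± 0.537) and Cry2 (10.9 ± 1.77). Per1 (6.80 ± 4.28), Per2 (3.70 ± 0.686), Cry1 (3.52 ± 0.694), Clock (2.42 ± 0.233) and Per3 (2.39 ± 0.177) were lower. The REV-ERB and PAR bZIP genes were thus the most abundant per length, and the ranges of the vehicle mice overlapped between neighbours for Dbp and Nr1d2, Cry2 and Per1, Per1 and Per2, Per2 and Cry1, and Clock and Per3. In semaglutide mice Tef led (40.0 ± 3.93, n = 5) and Dbp stood sixth (9.59 ± 7.90), with overlap between every pair of neighbours except Per2 and Per3. In semaglutide + ketone ester mice Tef led (39.4 ± 0.876, n = 3) and Dbp stood second (35.9 ± 0.449), and only Nr1d1 overlapped Nr1d2, and Per3 overlapped Per1, among neighbours.

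The comparison of semaglutide with vehicle asks which levels differed between these groups of obese mice. Clock genes oscillate over the day and the time of collection is not given. A difference that goes with treatment therefore cannot be told apart from one in time of collection, in this and the following comparisons. Cry1 and Cry2 rose and Nr1d1 and Dbp fell, which made 4 of the 10 clock genes past an adjusted p of 0.05 in limma fitted over all genes tested, where 25.1% of the 12303 genes passed (11.9% higher, 13.2% lower). Dbp had the largest difference, at 3.10-fold lower, and Nr1d1 was 1.96-fold lower. The median log2 difference over the 10 genes was 0.08, beside -0.003 over all genes. An unadjusted p under 0.05 was reached by 6 of the 10, the further ones being Per3 and Nr1d2, and by 38.6% of all genes. No clock gene separated the vehicle from the semaglutide mice without overlap, which 14.7% of all genes did (7.22% higher, 7.45% lower).

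The comparison of semaglutide + ketone ester with semaglutide asks which levels differed when the ester was given with the drug, with the same limit on time of collection. Dbp, Per3 and Nr1d2 rose and Cry1, Cry2 and Clock fell, 6 of the 10 genes, against a background of 18.4% of all genes past the same threshold (9.09% higher, 9.3% lower). The median over the 10 genes was 0.21 on the log2 scale, beside -0.0002 over all genes. The 3 ester mice lay above all semaglutide mice in 5 genes (Per2, Per3, Nr1d2, Dbp and Tef) and below them in 2 (Cry1 and Clock), against 20.1% of all genes without overlap (9.96% higher, 10.2% lower). As reads per length and library total, only Dbp of these 5 stayed above, and Cry1 and Clock stayed below. This comparison uses the same semaglutide mice as the one with vehicle, so opposite signs in both are not independent of each other. Against vehicle, 1 of the 10 genes passed, Per3, which rose, where 0.236% of all genes passed (0.0732% higher, 0.163% lower) and 4 of the 10 had an unadjusted p under 0.05, as did 10.5% of all genes. The median over the 10 genes was 0.05 in that comparison, beside -0.006 over all genes. The ester mice lay above all vehicle mice in Per2, Per3, Dbp and Tef and below them in Nr1d1 and Clock, against 11.3% of all genes without overlap (5.45% higher, 5.88% lower). As reads per length and library total, Tef in the ester mice (38.7 to 40.4) overlapped the vehicle mice (34.3 to 38.8), and the others stayed apart.

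**Figure D1:**
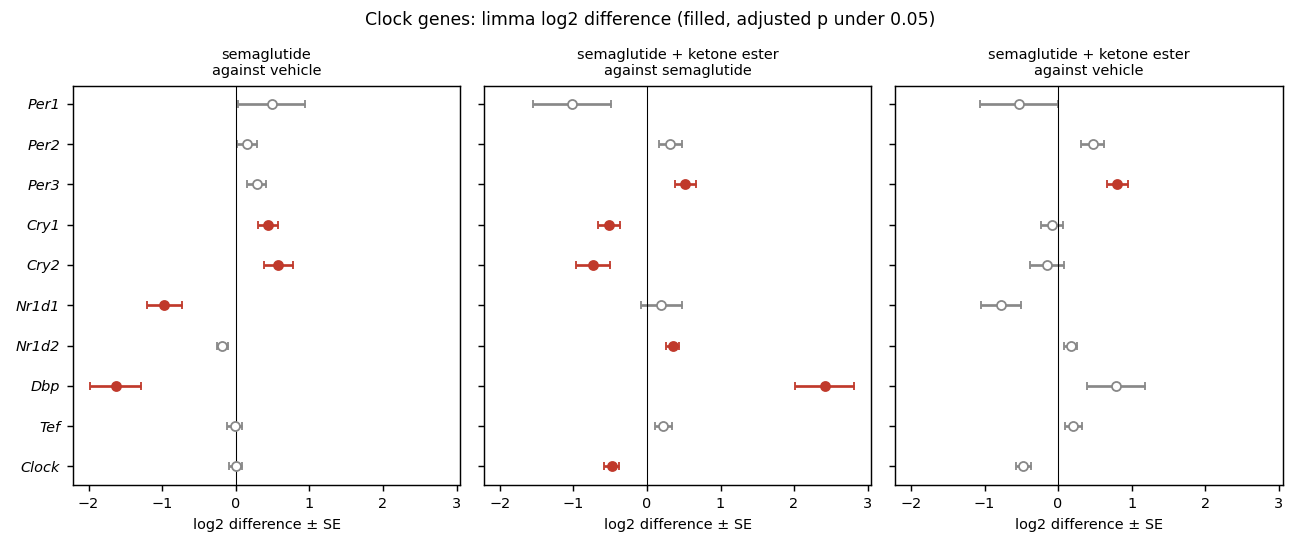
Log2 difference (horizontal axis, ± SE from limma) of the 10 clock genes (vertical axis) in 3 panels, semaglutide against vehicle, semaglutide + ketone ester against semaglutide, and semaglutide + ketone ester against vehicle, with filled red points for an adjusted p under 0.05. Dbp lies at -1.63 in the left panel and at 2.42 in the middle panel, and Per3 is the only filled point in the right panel.

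Without semaglutide mouse 13, the genes past the threshold were 5 against vehicle (Nr1d2 added), 7 for the ester against semaglutide (Per1 added) and 2 for the ester against vehicle (Dbp added). The share of all genes past the threshold rose with them, to 36.1%, 32.1% and 0.625%. Every clock gene that passed with all 13 mice also passed without mouse 13, which adds no support, since that mouse was picked from the same values.

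Per1, Per2 and Per3 encode the PERIOD repressors. Per1, which is also induced quickly by glucocorticoids and cAMP, had 1478, 986, 407, 420 and 435 normalized counts in vehicle mice 1 to 5, 299, 1184, 922, 1161 and 1552 in semaglutide mice 13 to 17, and 421, 408 and 513 in the ester mice. The vehicle mice split into a high pair and a low trio, semaglutide mouse 13 was the lowest of all 13 mice, and every group overlapped the others. Per1 passed the threshold in no comparison, with log2 differences of 0.49 ± 0.46 (SE; adjusted p = 0.47) for semaglutide against vehicle and -1.01 ± 0.53 (adjusted p = 0.20) for the ester against semaglutide. Without mouse 13 the latter was -1.41 (adjusted p = 0.0236), and with limma mouse weights over all 13 mice it was -1.33 (adjusted p = 0.0452). The weights are set from these same values and add no independent support. This was the only 1 of the 12 other settings in which Per1 passed, and 34.8% of all genes passed there.

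Per2 had 506, 515, 345, 345 and 387 normalized counts in vehicle mice, 531, 376, 430, 458 and 513 in semaglutide mice and 600, 550 and 567 in the ester mice. The ester mice were above every other mouse in these counts, by a small margin over semaglutide mouse 13. As reads per length and library total, they (4.61 to 5.22) overlapped the semaglutide mice (3.69 to 5.26). The log2 difference was 0.32 ± 0.16 against semaglutide (adjusted p = 0.18) and 0.47 ± 0.16 against vehicle (adjusted p = 0.31), neither past the threshold. Under the 12 other settings the former was 0.08 to 0.35.

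Per3, the PERIOD gene that mice can lose with the least effect on their rhythm, had 474, 402, 443, 430 and 466 normalized counts in vehicle mice, 623, 420, 561, 513 and 601 in semaglutide mice and 630, 813 and 899 in the ester mice. The group means stood in the order vehicle, semaglutide, ester, with the ester mice above all others and semaglutide mouse 14 within the vehicle range. Per3 was 1.74-fold higher with the ester than with vehicle (log2 0.80 ± 0.14, adjusted p = 0.0475) and 1.43-fold higher than with semaglutide (0.52 ± 0.14, adjusted p = 0.0263). The semaglutide mice did not pass against vehicle (0.28 ± 0.12, adjusted p = 0.11). The call against vehicle was the less firm: leaving out each mouse in turn kept it in 3 of 13 fits, with differences of 0.69 to 0.95 and adjusted p of 0.0336 to 0.228, and that against semaglutide held in 11, lost without ester mouse 21 or 22. The latter difference was 0.28 with columns rescaled to equal totals and did not pass, nor did it pass with only the 2 groups compared.

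Cry1 and Cry2 encode the cryptochromes, the strongest repressors of CLOCK and BMAL1. Cry1 had 296, 248, 226, 196 and 172 normalized counts in vehicle mice, 285, 329, 325, 282 and 301 in semaglutide mice and 194, 234 and 209 in the ester mice. Only vehicle mouse 1 reached the semaglutide range, and every ester mouse lay below it. Cry1 rose 1.35-fold with semaglutide (log2 0.44 ± 0.13, adjusted p = 0.0302) and fell 1.43-fold with the ester against semaglutide (-0.52 ± 0.15, adjusted p = 0.0342), and differed by -0.08 ± 0.15 between ester and vehicle (adjusted p = 0.93). Each of the former calls held in 7 of 13 fits without 1 mouse, with adjusted p up to 0.0725 and 0.109.

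Cry2 had 1417, 1650, 1300, 988 and 1330 normalized counts in vehicle mice, 1201, 1866, 2262, 2277 and 2545 in semaglutide mice and 1385, 1051 and 1145 in the ester mice. Semaglutide mice 14 to 17 were above all vehicle and ester mice, and mouse 13 was within both of their ranges. Cry2 rose 1.49-fold with semaglutide (log2 0.58 ± 0.20, adjusted p = 0.0498) and fell 1.66-fold with the ester against semaglutide (-0.73 ± 0.23, adjusted p = 0.0432). Both calls are close to the threshold and held in 2 and 3 of 13 fits without 1 mouse. Without mouse 13 the differences were 0.75 (adjusted p = 0.00245) and -0.91 (adjusted p = 0.00219).

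**Figure D2:**
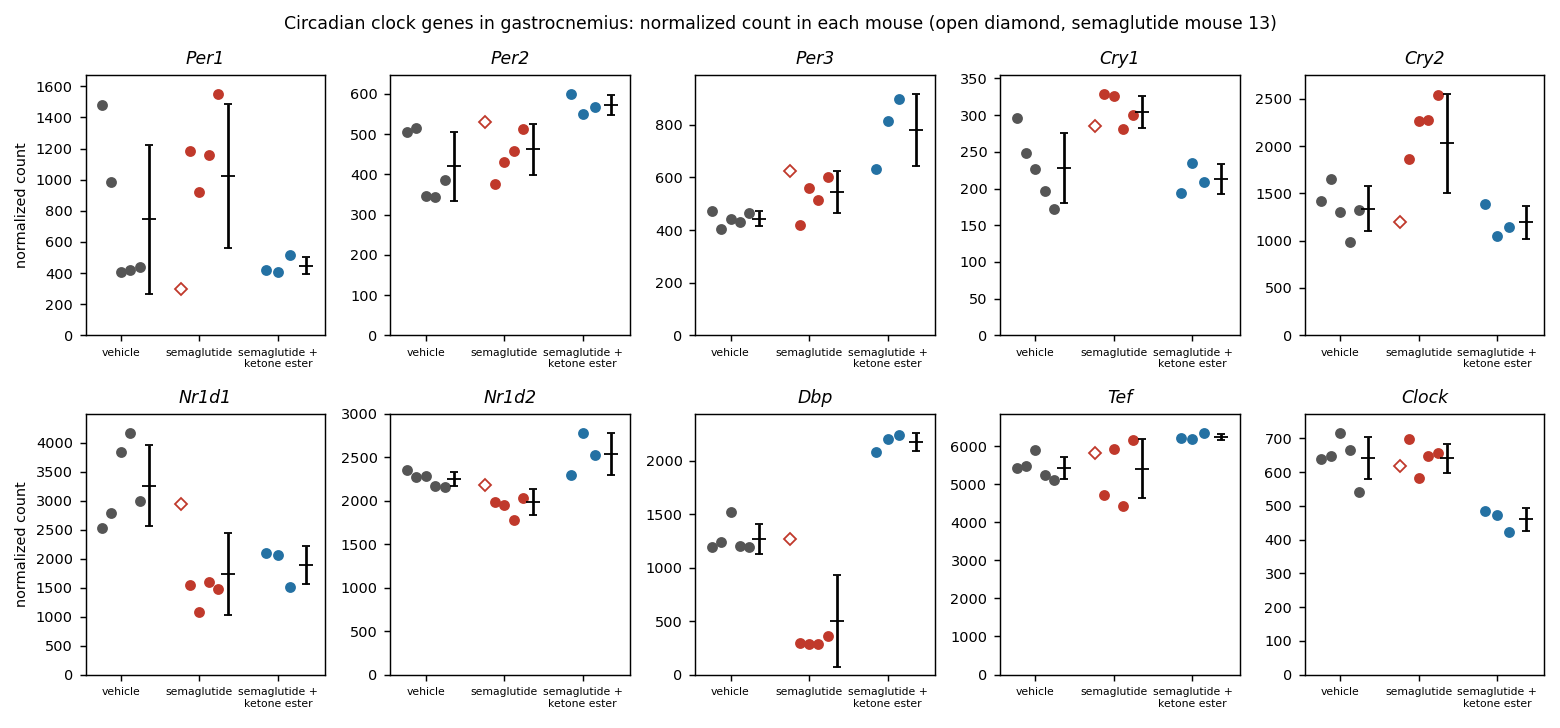
Normalized count (vertical axis, from 0) of each of the 10 clock genes, 1 panel a gene, in 5 vehicle, 5 semaglutide and 3 semaglutide + ketone ester mice (horizontal axis), 1 point a mouse, with the mean ± SD in black to the right and semaglutide mouse 13 as an open diamond. Mouse 13 lies with the vehicle mice for Dbp, Nr1d1 and Cry2, and the 3 ester mice lie above all other mice for Dbp, Per2, Per3 and Tef.

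Nr1d1 and Nr1d2 encode REV-ERB alpha and REV-ERB beta, heme-binding nuclear receptors that repress Arntl and, in muscle, bear on mitochondrial content. Nr1d1 had 2524, 2793, 3840, 4166 and 2986 normalized counts in vehicle mice, 2951, 1537, 1083, 1604 and 1478 in semaglutide mice and 2106, 2062 and 1517 in the ester mice. Semaglutide mice 14 to 17 and all ester mice were below every vehicle mouse, while mouse 13 was within the vehicle range. Nr1d1 was 1.96-fold lower with semaglutide than with vehicle (log2 -0.97 ± 0.24, adjusted p = 0.0121), and the call held in all 13 fits without 1 mouse (-1.18 to -0.82). The ester mice differed from vehicle by -0.77 ± 0.27 (adjusted p = 0.33) and from semaglutide by 0.20 ± 0.27 (adjusted p = 0.65), the latter turning to -0.04 when columns were rescaled to equal totals. Nr1d1 shares 263 exon bases with Thra, a thyroid hormone receptor gene on the opposite strand with a mean of 1194 normalized counts. The library kit keeps strand, and whether counting used it is not given in the sources used here.

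Nr1d2 had 2354, 2278, 2282, 2176 and 2160 normalized counts in vehicle mice, 2185, 1989, 1952, 1777 and 2028 in semaglutide mice and 2300, 2779 and 2531 in the ester mice. The spread was narrow, and only semaglutide mouse 13 reached the vehicle range in these counts. As reads per length and library total, semaglutide mice 14, 16 and 17 lay within it (21.1, 22.1 and 21.4 against 21.0 to 22.3). Nr1d2 was 1.28-fold higher with the ester than with semaglutide (log2 0.35 ± 0.09, adjusted p = 0.0198), a call lost without ester mouse 21 or 22. Against vehicle the semaglutide mice differed by -0.18 ± 0.08 (adjusted p = 0.11), and by -0.22 without mouse 13 (adjusted p = 0.0426). Under the 12 other settings that difference was -0.21 to -0.008 and did not pass. When columns were rescaled to equal totals, the rise with the ester was 0.11 and did not pass. The paralogs thus had separate patterns: Nr1d1 was below vehicle in all 3 ester mice, whereas the ester mice were within or above the vehicle range in Nr1d2, a difference between the genes that was not tested.

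Dbp and Tef encode PAR bZIP activators, which bind D-boxes and drive output genes of the clock. Dbp had 1190, 1238, 1517, 1199 and 1196 normalized counts in vehicle mice, 1272, 292, 288, 286 and 364 in semaglutide mice and 2080, 2201 and 2241 in the ester mice. Semaglutide mice 14 to 17 were far below every other mouse, mouse 13 was among the vehicle mice, and the ester mice were above all others. Dbp was 3.10-fold lower with semaglutide than with vehicle (log2 -1.63 ± 0.34, adjusted p = 0.00599) and 5.33-fold higher with the ester than with semaglutide (2.42 ± 0.40, adjusted p = 0.00289). Both calls held in all 13 fits without 1 mouse, and without mouse 13 the differences were -2.04 (adjusted p = 1.25e-06) and 2.83 (adjusted p = 4.34e-07). The ester mice exceeded vehicle by 0.78 ± 0.40 (adjusted p = 0.53), and by the same 0.78 without mouse 13 with adjusted p = 0.0196. Mouse 13 is in neither of these groups, and enters through the spread that the fit shares over the 3 groups. The SD was 433 in semaglutide mice, 141 in vehicle mice and 83.6 in ester mice. Dbp passed in limma with only the ester and vehicle mice (adjusted p = 0.0336). Dbp shares 539 exon bases with Sphk2 on the opposite strand, a sphingosine kinase gene with a mean of 337 normalized counts.

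Tef, with a like protein product, did not follow Dbp. It had 5425, 5472, 5895, 5249 and 5122 normalized counts in vehicle mice, 5812, 4731, 5920, 4421 and 6176 in semaglutide mice and 6227, 6192 and 6345 in the ester mice. In these counts the ester mice lay in a tight band above all others, and the semaglutide mice were spread on both sides of vehicle. The log2 difference was -0.02 ± 0.10 for semaglutide against vehicle (adjusted p = 0.92), which changed sign under other scalings, and 0.22 ± 0.11 for the ester against semaglutide (adjusted p = 0.19), which was -0.02 with columns rescaled to equal totals. The difference between Dbp and Tef was not tested.

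Clock encodes the histone acetyltransferase partner of BMAL1. It had 639, 648, 715, 665 and 541 normalized counts in vehicle mice, 618, 698, 583, 647 and 656 in semaglutide mice and 485, 474 and 422 in the ester mice. Vehicle and semaglutide mice overlapped, and all 3 ester mice lay below both groups. Clock fell 1.39-fold with the ester against semaglutide (log2 -0.48 ± 0.10, adjusted p = 0.00902), and the call was lost only without ester mouse 22 among fits without 1 mouse (adjusted p = 0.0552). Against vehicle the difference was also -0.48 ± 0.10, with adjusted p = 0.0897 where few genes passed, and semaglutide and vehicle differed by 0.0002 ± 0.09 (adjusted p = 0.999), a sign that changed with other scalings.

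**Figure D3:**
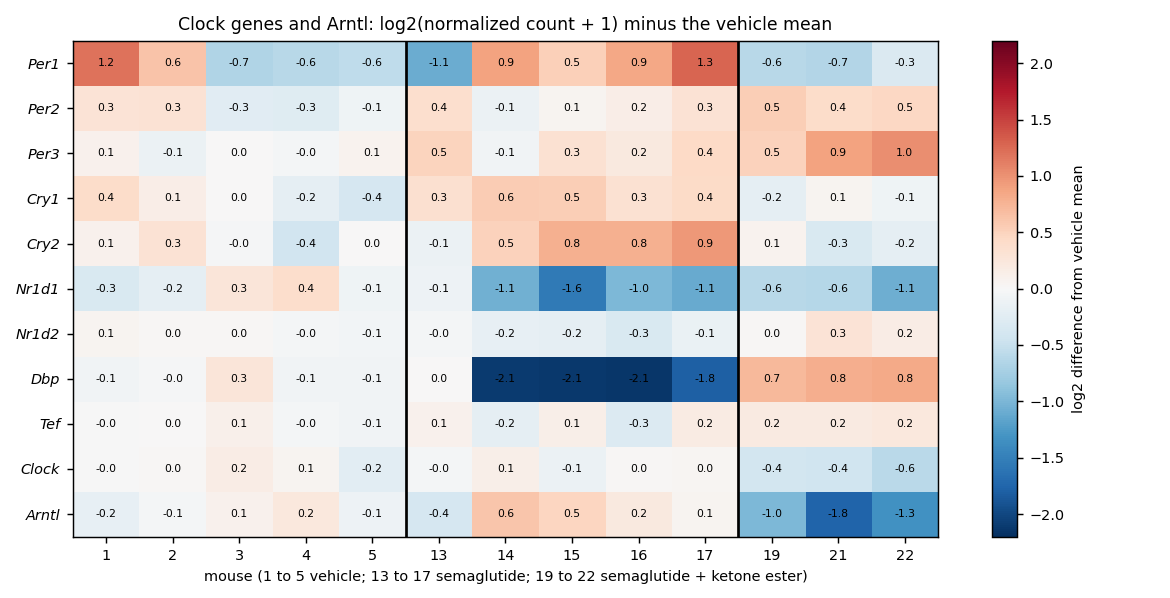
Log2(normalized count + 1) minus the vehicle mean (colour and printed value) for the 10 clock genes and Arntl (vertical axis) in each of the 13 mice (horizontal axis, groups divided by black lines). Semaglutide mice 14 to 17 are blue for Dbp and Nr1d1 and red for Cry2, mouse 13 is near 0 for these genes, and the ester mice are red for Dbp and Per3 and blue for Arntl.

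The genes also varied among mice given the same treatment. Vehicle mice 1 and 2 were the highest pair of their group in 4 of the 10 genes, Per1, Per2, Cry1 and Cry2, and the lowest pair in Nr1d1. No other pair of vehicle mice was the top pair in more than 2 genes. In the semaglutide group, mouse 13 was the highest in 5 genes (Per2, Per3, Nr1d1, Nr1d2 and Dbp) and the lowest in Per1 and Cry2. Over the 45 pairs of genes, deviations from the group mean were correlated over the 13 mice, with permutation of mice within groups, and none passed an adjusted p of 0.05 (smallest adjusted p = 0.29). Per1 and Nr1d1 had the largest Pearson r in size, at r = -0.774 (exact permutation p = 0.0173) and Spearman's rho = -0.736 (exact permutation p = 0.0155), with r = -0.529 without the 2 mice farthest from the median of Per1. Per1 and Cry2 followed, at r = 0.77 (exact permutation p = 0.0163) and Spearman's rho = 0.637 (exact permutation p = 0.025), with r = 0.668 without those mice. When mouse 13 was left out, 2 pairs passed over the 12 other mice, Per2 with Cry2 (r = 0.812, permutation adjusted p = 0.013) and Cry1 with Nr1d2 (r = 0.667, permutation adjusted p = 0.026). Without semaglutide mouse 15, Per1 with Nr1d1 passed (r = -0.897, permutation adjusted p = 0.0156).

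The other genes of the loop were taken from a list of 25, of which 22 were tested. Semaglutide against vehicle, 5 rose (Rora, Csnk1d, Csnk1e and Ncor1 among them) and 2 fell (Bhlhe41 and Ciart), 7 of 22 where 25.1% of all genes passed. With the ester against semaglutide, 4 rose (Bhlhe40, Bhlhe41, Ciart and Hlf) and 5 fell (Arntl, Csnk1d, Nfil3 and Rora among them), 9 of 22 against 18.4%, and against vehicle Arntl alone fell, against 0.236%. The medians of the 22 were 0.02, -0.07 and -0.03 on the log2 scale in these 3 comparisons, and without semaglutide mouse 13 the counts were 11, 12 and 2, where 36.1%, 32.1% and 0.625% of all genes passed. Genes not otherwise described below were named after their values were seen.

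Arntl, the gene for BMAL1, had 254, 278, 308, 340 and 268 normalized counts in vehicle mice, 223, 440, 401, 333 and 299 in semaglutide mice and 145, 84.6 and 114 in the ester mice. The ester mice were below every other mouse. Arntl fell 2.94-fold with the ester against semaglutide (log2 -1.55 ± 0.22, adjusted p = 0.00181) and 2.56-fold against vehicle (-1.36 ± 0.22, adjusted p = 0.0321), whereas semaglutide and vehicle differed by 0.20 ± 0.19 (adjusted p = 0.47). The call against vehicle was kept in 6 of 13 fits without 1 mouse (-1.54 to -1.16, adjusted p up to 0.199). It was lost without vehicle mouse 1, 2, 3 or 4, semaglutide mouse 17, or ester mouse 21 or 22, and also without a filter on low values (adjusted p = 0.0655), while the call against semaglutide was kept in all 13. Arntl and Clock, which encode the 2 partners of the activator, were thus both lowest in the ester mice. Npas2, which can stand in for Clock, was below the filter, with means of 8.39 ± 2.33 (SD, n = 5), 8.09 ± 6.55 (n = 5) and 5.25 ± 3.92 (n = 3) normalized counts.

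Rora encodes a ROR receptor, which activates the elements that REV-ERB proteins repress. It had 2654, 3047, 2494, 2185 and 2102 normalized counts in vehicle mice, 2749, 2956, 4900, 4600 and 5700 in semaglutide mice and 2432, 1869 and 1545 in the ester mice. Semaglutide mice 13 and 14 were within the vehicle range, mice 15 to 17 were above every other mouse, and all ester mice were below the semaglutide mice. Rora was 1.62-fold higher with semaglutide than with vehicle (log2 0.70 ± 0.21, adjusted p = 0.0303) and 2.10-fold lower with the ester than with semaglutide (-1.07 ± 0.24, adjusted p = 0.0118). Ester and vehicle differed by -0.37 ± 0.24 (adjusted p = 0.69), not past the threshold.

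Ciart and Bhlhe41 encode further repressors of CLOCK and BMAL1. Ciart had 153, 128, 78.0, 66.5 and 62.9 normalized counts in vehicle mice, 45.5, 32.7, 26.7, 32.0 and 43.3 in semaglutide mice and 63.2, 67.6 and 90.1 in the ester mice. Every semaglutide mouse, mouse 13 included, was below every other mouse. Ciart was 2.55-fold lower with semaglutide (log2 -1.35 ± 0.25, adjusted p = 0.00314) and 2.03-fold higher with the ester against semaglutide (1.02 ± 0.29, adjusted p = 0.0299), and vehicle mice 1 and 2 were again the highest pair of their group. Bhlhe41 had 1192 to 1774 normalized counts in vehicle mice, 431 to 1020 in semaglutide mice and 1175 to 1394 in ester mice, without overlap of the semaglutide mice with either group. It fell by 0.94 ± 0.19 on the log2 scale with semaglutide (adjusted p = 0.00523) and rose by 0.88 ± 0.22 with the ester (adjusted p = 0.018). Csnk1e, a kinase gene for PERIOD turnover, rose by 0.61 ± 0.10 with semaglutide (adjusted p = 0.00207), at 935 to 1402 against 703 to 862 normalized counts, and the ester mice (901 to 987) differed from semaglutide by -0.35 ± 0.12 (adjusted p = 0.0617).

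**Figure D4:**
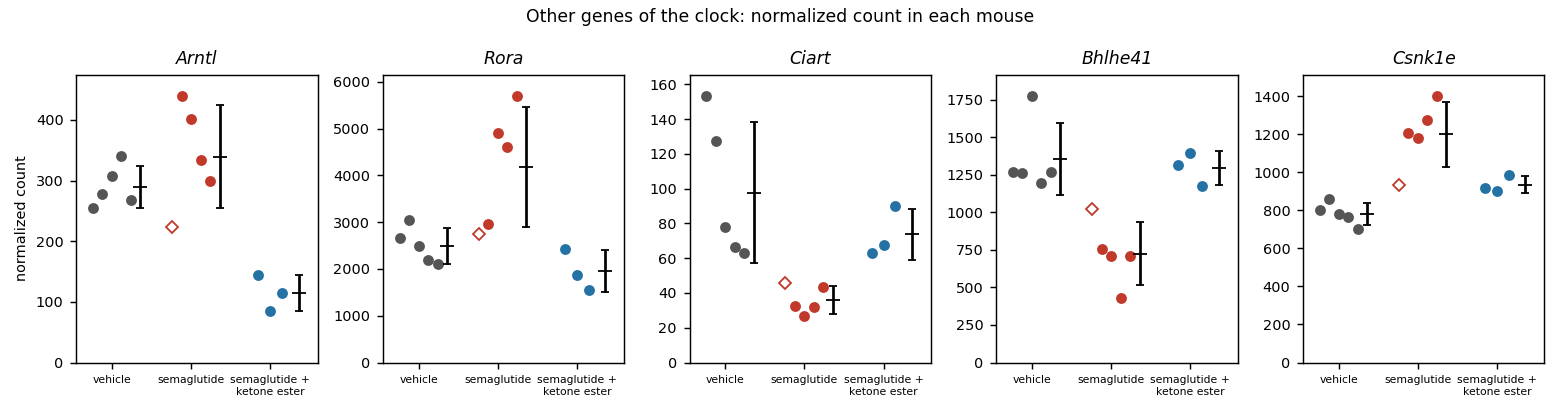
Normalized count (vertical axis, from 0) of Arntl, Rora, Ciart, Bhlhe41 and Csnk1e, 1 panel a gene, in each vehicle, semaglutide and semaglutide + ketone ester mouse (horizontal axis), with the mean ± SD in black and semaglutide mouse 13 as an open diamond. Ester mice are lowest for Arntl, and all 5 semaglutide mice lie above the vehicle mice for Csnk1e and below them for Ciart and Bhlhe41.

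**Figure D5:**
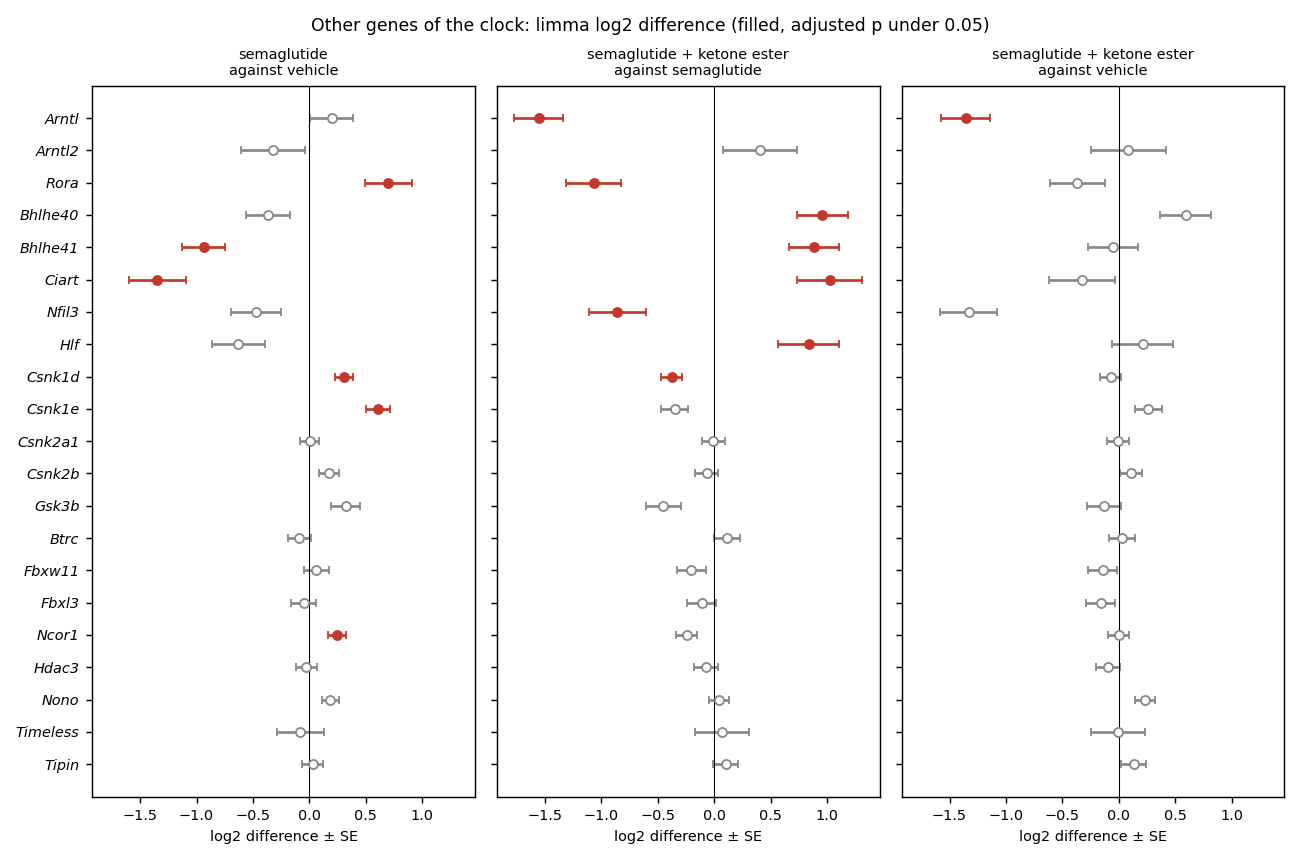
Log2 difference (horizontal axis, ± SE from limma) of 21 of the 22 other genes of the clock that were tested (vertical axis), in the same 3 comparisons, with filled red points for an adjusted p under 0.05. Filled points number 6, 8 and 1 from left to right, and Arntl is the one in the right panel.

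Of 11 output genes known to cycle in muscle or other tissues, 3 passed the threshold between semaglutide and vehicle, a share near the 25.1% of all genes. Myod1, the myogenic transcription factor, rose by 1.61 ± 0.24 on the log2 scale (adjusted p = 0.00108), from 129 to 224 normalized counts in vehicle mice to 393 to 942 in semaglutide mice. Usp2, a ubiquitin protease gene, fell by 0.70 ± 0.15 (adjusted p = 0.00631), and Coq10b, a coenzyme Q-binding protein gene, fell by 0.83 ± 0.20 (adjusted p = 0.0117). With the ester against semaglutide, Usp2 rose by 0.62 ± 0.17 (adjusted p = 0.0279) and Tsc22d3, a glucocorticoid-induced gene, fell by 0.50 ± 0.16 (adjusted p = 0.0453), 2 of 11 where 18.4% of all genes passed. None passed between ester and vehicle by limma, with 3 of 11 at an unadjusted p under 0.05 there, as for 10.5% of all genes. Medians over the 11 were -0.003, -0.02 and -0.02, in the order of comparisons used above.

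Signals that set peripheral clocks were followed through 16 genes that answer to glucocorticoids, temperature or acute stimulation. In each of the comparisons of semaglutide with vehicle and of the ester with semaglutide 3 of 16 passed, a share not above the background of 25.1% and near that of 18.4% of all genes. With semaglutide, 3 rose: Mt2, a metallothionein gene, by 1.67 ± 0.38 (adjusted p = 0.00882), Cebpd, a stress-induced transcription factor gene, by 2.62 ± 0.55 (adjusted p = 0.00568), and Rbm3, a cold-induced RNA-binding protein gene, by 0.73 ± 0.18 (adjusted p = 0.0132). With the ester against semaglutide, 3 fell: Mt2 by 3.04 ± 0.44 (adjusted p = 0.00194), Cebpd by 3.30 ± 0.63 (adjusted p = 0.0056) and Fkbp5, a chaperone gene of the glucocorticoid receptor, by 0.92 ± 0.28 (adjusted p = 0.0379). Cebpd had 132, 443, 1075, 1459 and 998 normalized counts in semaglutide mice 13 to 17, so mouse 13 was within the vehicle range of 56.9 to 137, and Fkbp5 in mouse 13 (1318) was also below the other semaglutide mice (2673 to 3339). Cebpd and Fkbp5 were thus high in semaglutide mice 14 to 17, the mice in which Dbp and Nr1d1 were low. Mt2 and Rbm3 did not set mouse 13 with the vehicle mice. Mt2 in mouse 13 (682) was above the vehicle mice (129 to 379) and within the other semaglutide mice (577 to 1367). Rbm3 in mouse 13 (624) was above the vehicle mice (387 to 613) and below the other semaglutide mice (673 to 1115). The part of any of these genes in the clock differences was not tested. Medians over the 16 were 0.55, -0.67 and -0.24, and none passed between ester and vehicle by limma, where 4 of 16 had an unadjusted p under 0.05, against 10.5% of all genes. Without mouse 13, the genes named from these 3 lists kept every call. Csnk1e (-0.43, adjusted p = 0.00457), Coq10b (0.82, adjusted p = 0.0107) and Rbm3 (-0.70, adjusted p = 0.0244) then passed for the ester against semaglutide, and Fkbp5 (0.84, adjusted p = 0.0025) for semaglutide against vehicle. With each mouse left out in turn, the ester-against-semaglutide calls were kept in 12 of 13 fits for Rora (lost without ester mouse 22), 11 for Bhlhe41 (lost without ester mouse 21 or 22), 7 for Ciart and Usp2, 5 for Fkbp5 and 2 for Tsc22d3. The semaglutide-against-vehicle call of Rora was kept in 7, and those of Ciart, Bhlhe41, Csnk1e, Myod1, Usp2, Coq10b, Mt2, Cebpd and Rbm3 in all 13.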

How the data were processed

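The deposited values are gene-level normalized counts (a signal column per mouse), made by the authors from Illumina Stranded mRNA libraries of frozen gastrocnemius, and every value in a column is a whole read number divided by that column's size factor. Per the submitters' processing notes, DRAGEN, DESeq2 and mm10 were used; beyond a link to the DRAGEN documentation, versions, the counting step, its annotation and its strand setting are not given in the sources used here. The whole reads were recovered from the steps between low values (100% of values whole within 0.01), and recovered totals were 15319471 to 23498162 per mouse. The SD between mice was under 2 times the counting error of the lowest library in 9 of the 30 combinations of gene and group, and under it in 2 (Tef and Per2 in ester mice).

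The main test was limma 3.58.1 (R 4.3.3) on log2(normalized count + 1) over genes with a mean of at least 10, in 1 fit of the 3 groups, with Benjamini-Hochberg adjustment over all 12303 genes and a threshold of 0.05. Differences are on that log2 scale and understate those of low genes. Alternatives used pseudocounts of 0.5 and 5, no filter or a mean of at least 50, quantile normalization, equal column totals, limma with a mean-variance trend or mouse weights, only the 2 groups compared, edgeR 4.0.16 and DESeq2 1.42.0 on the recovered reads, and each mouse left out. The scripts were tested on simulated data. Correlations of deviations from group means used every arrangement of mice within groups (86400), two-sided, in place of the random resamples planned. Levels per length used GENCODE exon lengths on GRCm38.

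The 10 genes and the lists of other genes were chosen with earlier results of these data known. Named genes were all 10, Arntl and Npas2, up to 6 others of each list with the smallest adjusted p past the threshold, and for each clock gene the 2 genes most like it. The labels give each sample its own mouse number, in a single series across the groups with some numbers absent. Nothing in them says that samples were other than separate mice. Time of collection was not part of any fit. A gene of the list of other clock genes is counted in that list and not reported here by itself.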

Additional observations from a re-analysis of the deposited data

Results flagged for a closer look

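In 20 groups of 5 mice (10 genes in the vehicle and semaglutide groups), the gap between the most extreme mouse and its nearest neighbour was divided by the range of the group and set against Dixon's critical value of 0.71. This marked 3 of the 20, and chance marks about 1 in 20. Nr1d1 in semaglutide mouse 13 had a ratio of 0.7209 as the highest of its group (2951 normalized counts against 1604 in the next mouse). Dbp in semaglutide mouse 13 had a ratio of 0.9204 as the highest of its group (1272 against 364). Dbp in vehicle mouse 3 had a ratio of 0.8547 as the highest of its group (1517 against 1238). Groups of 3 were not tested.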

How the results depend on the processing

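Among log2 differences of the clock genes under the 12 other settings, 331 kept their direction and side of the threshold, 14 no longer passed, 6 newly passed and 9 changed sign. With 1 mouse left out these counts were 328, 48, 5 and 9. Dbp and Nr1d1 against vehicle and Dbp for the ester against semaglutide passed in all of these, and Clock for the ester against semaglutide in all 12 settings. Clock genes past the threshold, semaglutide against vehicle, were 2 without a filter on low values and 2 to 5 with 1 mouse left out. For the ester against semaglutide they were 3 with only the 2 groups compared and 1 to 7 with 1 mouse left out. For the ester against vehicle they were 0 without a filter, 2 with mouse weights, 2 with DESeq2, and 0 to 2 with 1 mouse left out. Other genes of the clock, semaglutide against vehicle, were 11 with mouse weights and 5 to 11 with 1 mouse left out. For the ester against semaglutide they were 15 with equal column totals, 3 with only the 2 groups compared and 3 to 12 with 1 mouse left out. For the ester against vehicle they were 0 without a filter, 2 with equal totals, quantile normalization, pseudocount 5, a mean of at least 50, the trend, mouse weights, both edgeR fits and DESeq2, and 0 to 2 with 1 mouse left out. Correlated pairs were 0 to 2 with 1 mouse left out. The cause of these shifts was not tested. Rescaling columns to equal totals moved the median of all genes by 0.17 for semaglutide against vehicle and by -0.24 for the ester against semaglutide, with 3266 higher and 924 lower, and 609 higher and 3608 lower, against 1459 and 1625, and 1118 and 1144 as reported.

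Signs turned in values near 0. Nr1d1 for the ester against semaglutide was -0.0393 with equal totals. Tef for semaglutide against vehicle was 0.158 with equal totals, 0.0482 with quantile normalization, 0.0504 with mouse weights, 0.00552 with edgeR and TMM, 0.00011 with DESeq2, and -0.0671 to 0.0534 with 1 mouse left out, and for the ester against semaglutide it was -0.016 with equal totals. Clock for semaglutide against vehicle was -0.0219 with quantile normalization, -0.0212 with mouse weights, and -0.0595 to 0.0408 with 1 mouse left out. Cry1 for the ester against vehicle was -0.173 to 0.0218 with 1 mouse left out. No paired analysis was possible because the groups share no mouse numbers. With 3 ester mice, a difference missed by the test is not shown to be absent.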

Other observations

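Among the 12303 genes tested, the genes whose deviations from their group mean were most like those of each clock gene, by Pearson's r over the 13 mice, are given as a description with no test, since each was picked as the highest of many and the mice share a batch label. Per1 was followed most closely by Lrrc8a (r = 0.921) and Zdhhc1 (0.914). Per2 was followed most closely by Deaf1 (r = 0.9) and Rhobtb1 (0.888). Per3 was followed most closely by Sfswap (r = 0.921) and Egfl8 (0.906). Cry1 was followed most closely by Sema7a (r = 0.909) and Ikzf2 (0.9). Cry2 was followed most closely by Bach1 (r = 0.95) and Tgif1 (0.944). Nr1d1 was followed most closely by Lurap1 (r = 0.929) and Rita1 (0.923). Nr1d2 was followed most closely by Osgepl1 (r = 0.934) and Mosmo (0.909). Dbp was followed most closely by Lrrfip1 (r = 0.955) and Nrep (0.95). The log2 deviation of Dbp was 1.64 in semaglutide mouse 13 and at most 0.51 in size in any other mouse, so mouse 13 weighs heavily in these r values. Mouse 13 also had the largest deviation in size for Per1, Cry2 and Nr1d1. Tef was followed most closely by Pgm2l1 (r = 0.914) and Krba1 (0.914). Clock was followed most closely by Nfxl1 (r = 0.92) and Slc33a1 (0.891).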
